A study of Rattus norvegicus with 3 samples.

Results

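SNARE proteins are the engines of membrane fusion in every eukaryotic cell. A SNARE on a vesicle zips into a bundle of helices with partners on the target membrane, and the bundle pulls both lipid bilayers together. Proteins of the Sec1/Munc18 type guide this pairing, and the ATPase NSF with its SNAP adaptors takes spent bundles apart. In neurons the best known set is synaptobrevin (Vamp2), syntaxin 1A (Stx1a) and Snap25, which releases transmitter at synapses, while other SNAREs serve the early secretory pathway and the endosomes of the cell body.

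The SNARE and membrane fusion genes were chosen by their symbols alone: syntaxins, syntaxin binding proteins, VAMPs, numbered SNAPs, VTI1, BET1, GOSR and SEC22 proteins, YKT6, NSF and the NSF adaptors. A total of 41 genes of the 14218 measured met this rule, and they were read by 71 of the 20832 probe sets with a single gene symbol. The genes were grouped by the membrane where the protein mainly acts, which gave 8 plasma membrane SNAREs, 11 endosomal SNAREs and 10 SNAREs of the endoplasmic reticulum (ER) and Golgi apparatus. A further 3 genes act at several membranes, 4 encode syntaxin binding proteins, 4 belong to the NSF complex, and Snap91 matched by name although it encodes the clathrin assembly protein AP180 and not a SNARE. Stx2, Stx19, Snap47, Stxbp4 and Stxbp5l were on the class lists but were not analysed here.

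Arrays were run on 3 somata, each the cell body of a pyramidal neuron that was cut free and taken up with a glass pipette from a hippocampal culture. The cultures were made from Sprague-Dawley rat embryos at day 19 of gestation and were 14 days old at harvest, the labels name no treatment, and the somata form a single group named cell 1, cell 2 and cell 3 after the replicate numbers. There was no second group, and nothing in the labels tells whether the cells came from separate animals or dishes, so the spread over cells (SD, n = 3) is given without a p-value. The cells are in dissociated culture and each was amplified from the RNA of 1 soma, which limits how far they stand for pyramidal neurons in tissue.

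Values were log2 intensities, and the percentile of a gene is its place among all 14218 genes of the same array. Probes differ in brightness at equal RNA, so a percentile gives the place of a reading and says nothing certain of which of several transcripts was more abundant. Array medians were between 7.09 and 7.23 log2. A gene was called above background where it exceeded the 95th percentile of 156 genes presumed silent in neurons, a limit of 9.54, 10.09 and 9.40 log2 in cells 1, 2 and 3. By construction 8 of the silent genes passed on each array. The pyramidal label was borne out in part: Neurod2, a transcription factor of excitatory neurons, was at percentile 99.9 in every cell and Nrgn, a calmodulin-binding protein of dendrites, at 94.8, 99.4 and 98.8, but the vesicular glutamate transporter Slc17a7 stayed near the middle (55.3, 51.2 and 51.2) and Camk2a below it (26.5, 19.6 and 26.2). Cell 1 stood apart. Its 3′ Gapdh control probe set exceeded the 5′ one by 0.20 log2, against 3.06 and 2.93 in cells 2 and 3. The 5′ one read 10.26, 8.37 and 8.71 log2, below the background limit in cells 2 and 3. Of 10 microglial markers 4 were above background in cell 1 and 0 in the others. Results that rest on cell 1 are therefore given with and without it.

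Most fusion genes read in the middle of the arrays by the median of their probe sets, and few read high. The median percentile of the 41 genes was 56.5, 58.3 and 60.4 in cells 1, 2 and 3 (58.4 ± 1.95), where the middle of the array is 50. Members above background numbered 2 of 41 in cell 1 (4.88%), 2 in cell 2 (4.88%) and 5 in cell 3 (12.2%), against 8.21%, 5.32% and 11.0% of all genes. By the median of its probe sets the plasma membrane syntaxin Stx3 was the 1 member above background in all 3 cells, beside 2.18% of all genes. Neither of its 2 probe sets passed in all 3 cells: 1 passed in cells 2 and 3 and the other in cell 1. In the top 5% of an array were 1, 2 and 2 members, beside 5.01%, 5.01% and 5.00% of all genes by construction, and none of the 41 was there in all 3 cells, where 1.39% of all genes were. Members above the array median in every cell were 11 (26.8%, beside 26.4% of all genes), and 7 were below it in every cell (17.1%, beside 25.0%). These shares are close to those of the array as a whole, and the 7 of 41 at the low end does not set the members apart. Several probe sets were held by 22 of the 41. Among all probe sets, their brightest and dimmest ones lay a median of 49.3 percentile points apart. For all genes with several probe sets this gap was 33.0 points. The median of a bright and a dim probe set can place a gene nearer the middle. The part of this in the shares was not tested.

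Plasma membrane and endosomal SNAREs read higher than those of the ER and Golgi, and the first 2 classes could not be ordered. The class median of the plasma membrane SNAREs was at percentile 55.7, 73.2 and 73.5 in cells 1, 2 and 3 (67.5 ± 10.2). Endosomal SNAREs had medians of 62.1, 71.2 and 68.0 (67.1 ± 4.63), and ER and Golgi SNAREs 52.7, 47.9 and 50.6 (50.4 ± 2.40). With Sec22a and Sec22c counted in it, the ER and Golgi class was the lowest of the 3 in each soma. Both genes read below the array median in every cell. Class medians without them were not computed, and the order in cell 1, where the gap was small, could depend on them. Plasma membrane minus ER and Golgi medians came to 2.96, 25.3 and 22.9 percentile points (17.0 ± 12.3), so the gap was almost nil in cell 1. Endosomal minus ER and Golgi medians were 9.35, 23.3 and 17.4 points (16.7 ± 6.98). Without cell 1 these gaps averaged 24.1 and 20.3 points. The plasma membrane median was lower than the endosomal median in cell 1 and higher in cells 2 and 3 (-6.39, 2.0 and 5.52 points), a mean of 0.38 ± 6.12 that is well inside the spread between cells. Because the classes hold 8 to 11 genes read by different probes, these gaps are a description of the arrays.

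**Figure D1:**
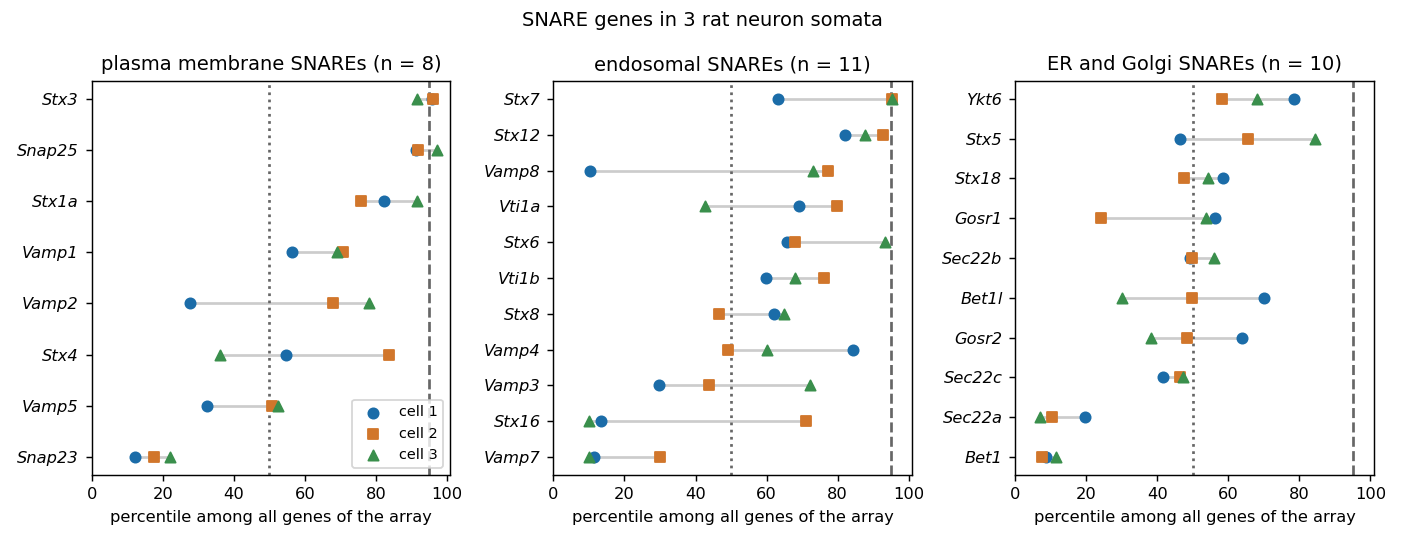
Percentile of each SNARE gene (horizontal axis, among all 14218 genes of the array) by soma (circles for cell 1, squares for cell 2, triangles for cell 3), with a grey line from lowest to highest cell, a dotted line at 50 and a dashed line at 95. Stx3, Snap25 and Stx7 reach the dashed line in at least 1 cell, whereas no ER and Golgi SNARE does.

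Among the plasma membrane SNAREs, Stx3, Snap25 and Stx1a read high in every soma by the median of their probe sets, but only Stx3 passed background in all 3. Stx3, a syntaxin known from apical membranes and ribbon synapses, read 10.28, 10.36 and 9.73 log2 in cells 1, 2 and 3 (10.12 ± 0.34), at percentiles of 95.7, 96.0 and 91.5. Snap25, the partner of Stx1a in transmitter release, read 9.46, 9.61 and 10.91 log2 (9.99 ± 0.80), with cell 3 above the others and above background. Stx1a, the syntaxin of that pair, was at percentiles of 82.2, 75.7 and 91.5 and passed background in cell 3. Among all probe sets, those of Stx1a were at 89.4, 92.1 and 96.4 and at 63.3, 37.4 and 77.6. The small spread of Stx3 is that of a mean of 2 probe sets that ran in opposite ways between cells, with values given further on.

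The other plasma membrane SNAREs were nearer the middle of the arrays or below it by the median of their probe sets. Vamp2, the vesicle SNARE of most central synapses, was at percentiles of 27.6, 67.8 and 78.0, low in cell 1 and above the middle in the others. Its close relative Vamp1 was steadier at 56.5, 70.7 and 69.0. Stx4, which serves constitutive exocytosis and dendritic spines, varied from 83.6 in cell 2 to 36.0 in cell 3, with cell 1 at 54.8. Vamp5, a VAMP of muscle and endothelium, was at 32.3, 50.6 and 52.4. Snap23, the relative of Snap25 that most other tissues use, read lowest of the class at 12.2, 17.7 and 22.1. It was the sole plasma membrane SNARE below the array median in all 3 cells.

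Endosomal SNAREs spanned almost the full range of the array. Stx7, a late endosomal syntaxin, read 7.74, 10.21 and 10.49 log2 in cells 1, 2 and 3 (9.48 ± 1.51), and was above background and in the top 5% in cells 2 and 3 but not in cell 1. Stx12 (syntaxin 13), which works on recycling endosomes, was at percentiles of 82.0, 92.8 and 87.6, the steadiest of the high readings in this class. That reading is the middle of 2 probe sets that lay 84.1 points apart, with values given further on. Stx6, a syntaxin between trans-Golgi network and endosomes, was at 65.6, 68.1 and 93.5 and passed background in cell 3. Vti1b and Stx8, which pair with Stx7 on late endosomes, were at 59.8, 76.2 and 68.0 and at 62.1, 46.7 and 64.9. Vti1a, the trans-Golgi relative, was at 69.0, 79.7 and 42.6, and Vamp4, a VAMP of the same membranes, at 84.4, 49.2 and 60.0.

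Other endosomal SNAREs depended on the cell or read low. Vamp8 (endobrevin), which fuses late endosomes, read 5.58, 8.39 and 8.18 log2 (7.38 ± 1.57), at percentiles of 10.4, 77.4 and 73.1, so that cell 1 lay far below the others. Stx16, a trans-Golgi syntaxin, read 5.78, 8.08 and 5.35 log2, with cell 2 alone above the middle (13.4, 71.2 and 9.95). Vamp3 (cellubrevin) of recycling endosomes was at 29.6, 43.9 and 72.3. Vamp7, a VAMP of late endosomes that also supports neurite growth, read 5.65, 6.48 and 5.35 log2, at percentiles of 11.3, 30.0 and 9.95, and was the sole endosomal SNARE below the array median in all 3 cells.

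SNAREs of the ER and Golgi read near the middle of the arrays or low. By the median of their probe sets 0 of 10 exceeded background in any soma, where 2424 of all 14218 genes did in at least 1 (5.32% to 11.0% in a single cell). With 10 genes this count does not set the class apart. Single probe sets of Sec22c (cells 1 and 3), Gosr2 (cell 1) and Stx5 (cell 3) did exceed it. Ykt6, a lipid-anchored SNARE of the early secretory pathway, was the 1 member of the class above the array median in every cell, at percentiles of 78.6, 58.3 and 68.0. Stx5, the Golgi syntaxin, was at 46.3, 65.6 and 84.5, with cell 1 lowest. Its ER counterpart Stx18 (58.4, 47.4 and 54.2) and the vesicle SNARE Sec22b (49.2, 49.9 and 55.9) stayed close to the middle and hardly differed between cells. For Sec22b this is the middle of 2 probe sets that moved in opposite ways. Among all probe sets they were at 69.3, 61.5 and 87.3 and at 30.6, 42.4 and 15.6. Gosr1 (GS28) was at 56.2, 24.1 and 53.8, Gosr2 (membrin) at 63.7, 48.4 and 38.3 and Bet1l (GS15) at 70.0, 49.7 and 30.0, with cell 1 highest for all 3. Sec22c was at 41.7, 46.3 and 47.3. The lowest readings were Sec22a with 6.12, 5.46 and 5.12 log2 and Bet1 with 5.45, 5.24 and 5.46 log2, both under the 20th percentile in every soma.

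**Figure D2:**
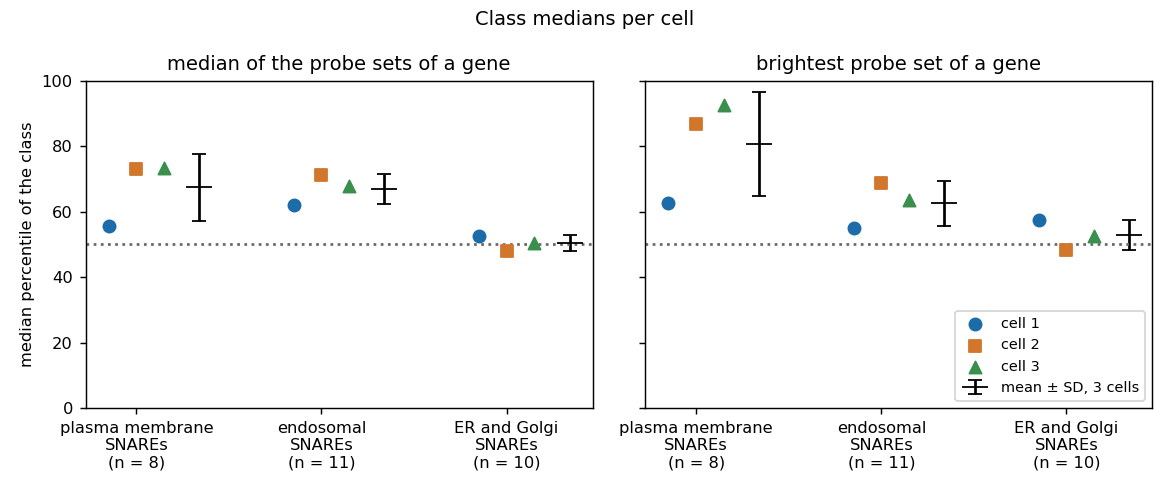
Median percentile of each SNARE class by cell (circles 1, squares 2, triangles 3), beside the mean ± SD of the 3 values, taking the median (left) or the brightest (right) probe set of each gene. ER and Golgi SNAREs average 50.4 on the left and 52.8 on the right, while plasma membrane SNAREs average 67.5 and 80.8.

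SNAREs that act at several membranes differed strongly between cells. Stx17, which serves the fusion of autophagosomes, read 5.41, 9.36 and 8.63 log2 in cells 1, 2 and 3 (7.80 ± 2.10), at percentiles of 8.18, 89.7 and 80.7. This was the widest range of any member. Snap29, a partner of Stx17 in that step, was at 74.2, 44.6 and 78.8 and did not share the low reading in cell 1. Stx11, a syntaxin known from lytic granules of immune cells, was at 63.2, 39.3 and 7.91, with cell 3 lowest.

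Regulators and the disassembly machinery gave mixed readings. Stxbp2 (Munc18-2), which serves granule release in epithelial and immune cells, read 10.02, 5.87 and 8.51 log2 (8.13 ± 2.10) and was above background in cell 1 alone. Stxbp5 (tomosyn), an inhibitor of synaptic SNARE pairing, was at percentiles of 64.8, 59.5 and 34.7, and Stxbp6 (amisyn) at 33.5, 45.8 and 60.4. Stxbp3 (Munc18c) of constitutive exocytosis read low throughout, with 6.12, 5.60 and 5.65 log2. The general SNAP adaptor Napa (alpha-SNAP) was at 69.4, 90.3 and 80.3, the highest of its complex in cells 2 and 3. Its brain relative Napb (beta-SNAP) read 8.18, 8.47 and 5.90 log2, with cell 3 far below the others, and Napg (gamma-SNAP) was at 40.5, 84.4 and 69.1. The ATPase Nsf, on which all of these bundles depend, was at 12.9, 42.4 and 40.3, below the middle of each array by the median of its 3 probe sets. Snap91 (AP180), matched by name only, was at 50.4, 80.8 and 77.7.

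The value of a gene depended on which probe sets carry its symbol. Of the 41 genes 22 had 2 or 3 probe sets, and the percentiles of their brightest and dimmest ones, here among all 31099 probe sets, lay a median of 49.3 points apart. The gap exceeded 40 points for 13 of the 22 (59.1%), beside 40.6% of the 4526 genes with several probe sets on the array. Among genes with exactly 2 probe sets it did so for 8 of 14 members (57.1%), beside 29.5% of 3060 genes. The probe set that read highest belonged to Stx12, with 12.63, 12.85 and 13.04 log2, the sole member in the top 5% of all probe sets in every soma (1 of 71, beside 1.63% of all probe sets). The other probe set of Stx12 read 4.62, 6.68 and 5.42 log2, and the high percentile of the gene is the middle of this pair. In the top 5% of at least 1 cell were 9 of 71 member probe sets (12.7%), beside 9.45% of all probe sets.

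Vamp2, Nsf, Napg and Snap91 each had 1 bright probe set and 1 or 2 dim ones. For Vamp2 the bright probe set read 7.92, 9.93 and 11.12 log2 in cells 1, 2 and 3 and the dim one 5.05, 5.93 and 5.79. For Nsf the probe sets read 8.16, 9.03 and 10.18 log2, then 5.09, 6.95 and 6.82, and last 5.75, 6.19 and 5.27, so the brightest read well above the value of the gene. For Napg they read 9.27, 9.89 and 10.42 against 4.60, 7.82 and 5.53. The bright probe sets of these 3 genes had their lowest reading in cell 1 and their highest in cell 3. For Snap91 the probe sets read 8.97, 10.29 and 11.45 against 5.60, 6.88 and 5.42, the dim one being among those that can match several transcripts. Stx1a and Vamp1 agreed better, with gaps of 28.8 and 29.6 points, and Stx3 best, with 4.60 points, although its probe sets moved in opposite ways between cells: 9.0, 10.81 and 11.20 log2 against 11.56, 9.92 and 8.27.

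Gaps of this size also occurred in other members. Vamp4 read 11.51, 9.21 and 10.27 log2 by its bright probe set and 6.07, 5.20 and 4.86 by the dim one, Stxbp6 7.88, 9.87 and 9.38 against 5.53, 4.32 and 5.79, and Gosr2 9.62, 8.89 and 7.88 against 5.90, 5.46 and 5.61. The bright Stx5 probe set read 7.21, 9.98 and 10.59 log2 and the other, which can match several transcripts, 7.07, 5.68 and 7.24. Sec22c had a probe set with 12.05 log2 in cell 1 but 7.40 and 9.69 in cells 2 and 3, and its others stayed lower (6.98, 7.11 and 7.09, and 6.32, 4.37 and 6.77). In each of these genes the same probe set read highest in all 3 cells. Snap29, Vamp5 and Bet1l had 3 probe sets each, with gaps of 64.5, 52.6 and 40.2 points. Those of Snap29 read 8.19, 7.04 and 8.67 log2, then 6.99, 8.04 and 8.51, and last 8.50, 4.68 and 4.90, the first of which can match several transcripts. Those of Vamp5 read 8.09, 7.41 and 8.04 log2, 6.66, 7.25 and 7.03, and 5.79, 4.80 and 7.28, and those of Bet1l 8.11, 7.22 and 6.68, 8.01, 5.12 and 6.41, and 5.41, 8.11 and 4.79. Which probe set follows the transcript was not tested.

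**Figure D3:**
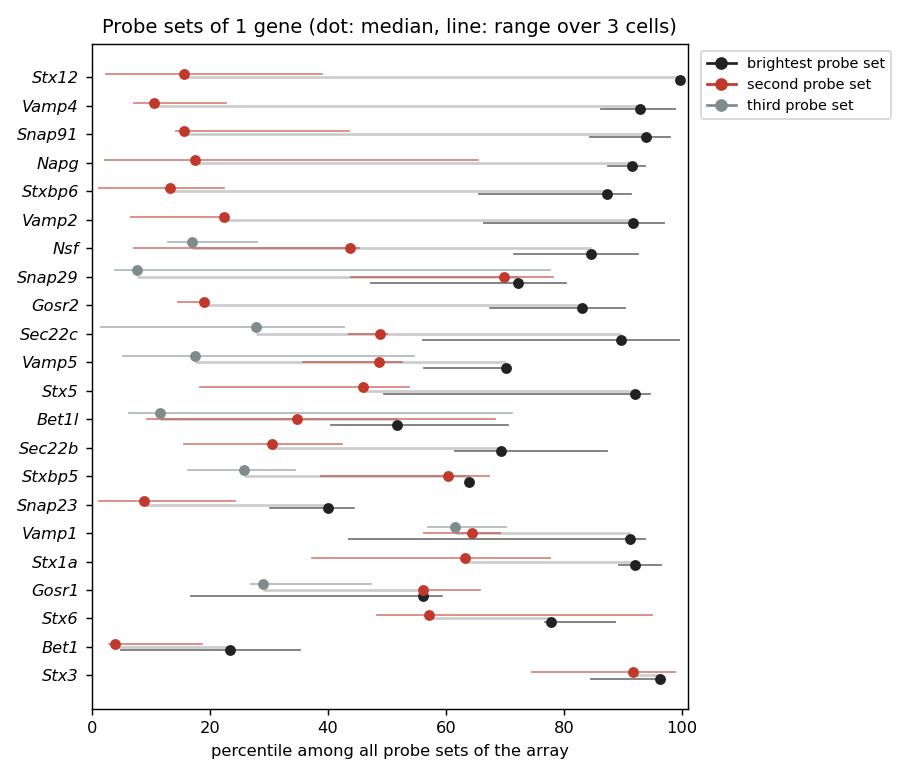
Percentile among all 31099 probe sets (horizontal axis) of each probe set of the 22 fusion genes that had more than 1, with a dot at the median and a line from the lowest to the highest of the 3 cells, in black for the brightest probe set of a gene, red for the next and grey for the last. Genes run from the widest gap, 84.1 points for Stx12, to the narrowest, 4.60 points for Stx3.

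Taking the brightest probe set of each gene raised the plasma membrane class most, and the classes differ in how far this choice can raise them. A gene with 1 probe set keeps its log2 value, which holds for 2 of 8 plasma membrane, 8 of 11 endosomal and 3 of 10 ER and Golgi SNAREs. Such a gene is ranked anew among the brightest probe sets of other genes, and its percentile can fall. For Stx7 the mean percentile went from 84.6 to 79.5. The plasma membrane median was then at percentile 62.6, 87.0 and 92.7 in cells 1, 2 and 3 (80.8 ± 16.0). Endosomal SNAREs had medians of 55.0, 68.9 and 63.7 (62.5 ± 7.0), and ER and Golgi SNAREs 57.6, 48.4 and 52.4 (52.8 ± 4.59). The plasma membrane class then led the endosomal one by 18.2 ± 10.7 points where the median of probe sets gave 0.38. The difference between these 2 classes therefore depends on the choice of probe sets, and a larger one is built into the brightest by the number of probe sets, while the ER and Golgi class was below the plasma membrane class in every cell under either choice. With the brightest probe sets it was above the endosomal class in cell 1.

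The same gene in different cells is read by the same probes. After quantile normalisation, plasma membrane SNAREs were higher in cell 2 than in cell 1 by a median of 0.45 log2 (7 of 8 genes) and in cell 3 than in cell 1 by 0.64 (6 of 8). All genes shifted by 0.10 and 0.21, and 53.4% and 55.7% of them were higher than in cell 1. In classes this small, counts such as the 7 of 11 and 4 of 10 below lie near these shares. Vamp2 was the clearest case, at 1.54 and 2.04 log2 higher in cells 2 and 3 than in cell 1. Endosomal SNAREs were higher by 0.74 (9 of 11 genes) and 0.34 (7 of 11), led by Vamp8 and Stx7, each over 2.5 log2 higher in cells 2 and 3. ER and Golgi SNAREs did not share this: their median difference from cell 1 was -0.47 log2 in cell 2 (3 of 10 genes higher) and -0.12 in cell 3 (4 of 10 higher). Over probe sets, cell 1 was the lowest of the somata for 10 of 16 of the plasma membrane class (62.5%), 7 of 14 of the endosomal class (50%) and 3 of 20 of the ER and Golgi class (15%), where it was lowest for 42.5% of all probe sets on the array. Between cells 2 and 3 the class medians differed by 0.14, -0.22 and 0.22 log2 for plasma membrane, endosomal, and ER and Golgi SNAREs.

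**Figure D4:**
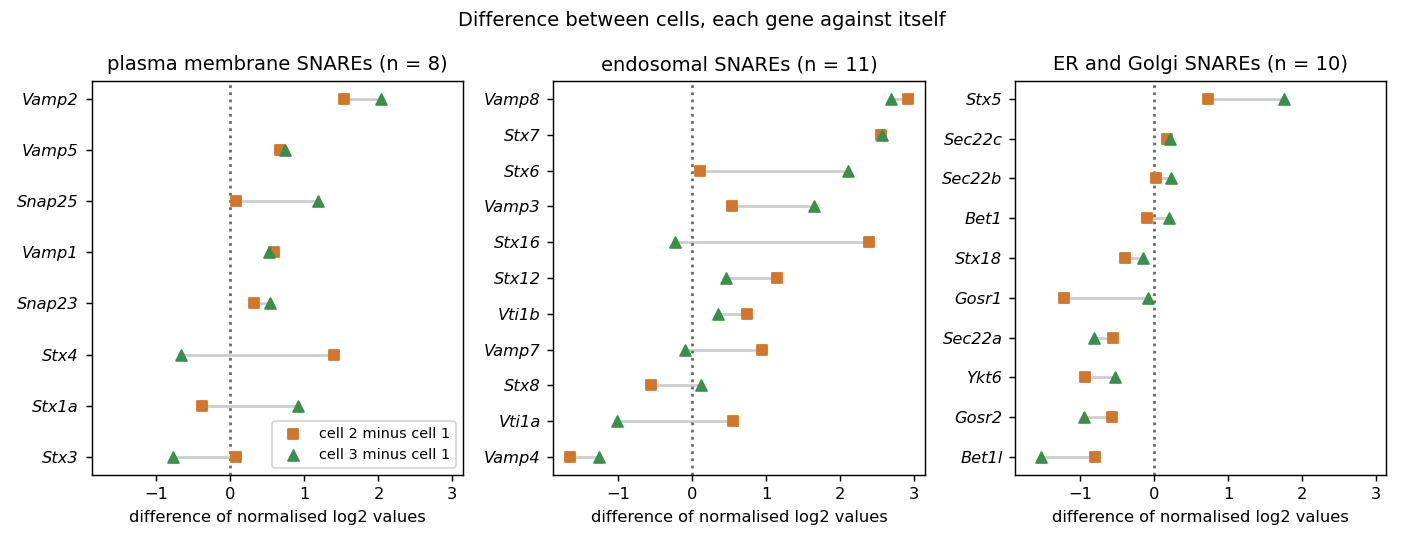
Difference of quantile-normalised log2 values of each SNARE gene (horizontal axis) in cell 2 (squares) and cell 3 (triangles) from cell 1, with a dotted line at no difference. Most plasma membrane and endosomal genes lie right of the line, with Vamp8 and Stx7 farthest. Of the 10 ER and Golgi genes 3 lie right of it for cell 2 and 4 for cell 3. Of all genes on the array 53.4% and 55.7% were higher in cells 2 and 3 than in cell 1.

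Median percentiles of glial markers were highest in cell 1, those of interneuron markers in cell 2 and those of pyramidal markers in cell 3. Microglial markers had a median percentile of 74.9 in cell 1, against 51.6 and 34 in cells 2 and 3 (10 genes), with 4, 0 and 0 above background. Astrocyte markers had medians of 77.3, 33.2 and 47.3 (9 genes; 2, 0 and 0 above background), oligodendrocyte markers 78.1, 63.0 and 55.4 (9 genes; 1, 1 and 0) and interneuron markers 41.7, 55.9 and 34.7 (7 genes; 0, 1 and 0). Pyramidal markers had medians of 55.3, 51.2 and 94.7 (9 genes; 2, 2 and 5), but Tbr1 among them read low (2.12, 14.6 and 23.9). In cell 2 the interneuron gene Vip (97.0, against 62.7 and 44.8 in cells 1 and 3) was above background. So was the oligodendrocyte gene Sox10 (94.8, against 20.2 and 77.0). The glial genes above background in cell 1 were Tyrobp (percentile 99.3 there, against 9.95 and 2.93 in cells 2 and 3), C1qc (99.0, against 73.7 and 67.2), Csf1r (97.0, against 52.9 and 75.5), Itgam (97.0, against 43.5 and 14.0), S100b (98.9, against 33.2 and 58.2), Myrf (96.7, against 51.0 and 39.8) and Gja1 (92.4, against 49.7 and 37.4). Other defining genes read low in cell 1, among them Aif1 (1.65, against 31.9 and 28.3) and Gfap (14.9, against 68.0 and 47.8). The 3′ control probe set of beta-actin exceeded the 5′ one by 0.32 log2 in cell 1 and by 2.07 and 1.71 in cells 2 and 3. Both read below the background limit in every cell (3′ 7.96, 8.54 and 9.38 log2, 5′ 7.64, 6.46 and 7.67), so this difference is a weak measure. The part of these differences in the SNARE readings was not tested.

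The cells agreed about as well over the fusion genes as over the array. Across the 41 genes, which are not independent replicates and share their probes between arrays, Pearson's r was 0.39 for the first pair of cells (1 with 2), 0.52 for cell 3 with cell 1 and 0.66 for cell 3 with cell 2 (Spearman's rho 0.35, 0.41 and 0.59). Over all genes r was 0.47, 0.44 and 0.68. The median SD of a gene over cells was 0.68 log2 for the fusion genes, beside 0.77 for all genes. It was 0.44 for the ER and Golgi class, 0.57 for the plasma membrane class and 0.84 for the endosomal class. A median over several probe sets can narrow this SD, and the sets differ in this. Genes with 1 probe set were 3 of 10, 2 of 8 and 8 of 11 in these classes. Several probe sets were held by 22 of 41 members, against 4526 of all 14218 genes. The SDs therefore do not rank the classes by steadiness. Sec22c and Sec22b, both of the ER and Golgi, hardly varied at the gene level (SD of 0.11 and 0.13), although their single probe sets did, and Stx17 and Stxbp2 varied most (2.15 and 2.14).

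Proteins that work with SNAREs read around the middle of the arrays. Of 69 such genes outside the symbol rule, 7, 5 and 6 were above background in cells 1, 2 and 3 (10.1%, 7.25% and 8.70%, close to the 8.21%, 5.32% and 11.0% of all genes), and their median percentile was 47.5, 54.3 and 46.5. Release cofactors had a median of 49.5 ± 13.1 (23 genes), led by the priming factor Unc13b at 77.3, 97.9 and 97.5 and the dense-core vesicle factor Cadps at 92.6, 85.7 and 93.2, while the Rab effector Sytl2 read lowest at 4.16, 0.03 and 1.28. The active zone scaffold Rims1 (21.5, 6.93 and 12.7) and the complexins Cplx1 (68.6, 55.1 and 78.5) and Cplx2 (34.6, 70.4 and 72.1), chosen after their values were seen, lay between. The exocyst, which tethers vesicles to the plasma membrane, had a median of 56.2 ± 10.3 (9 genes), with Exoc6b (94.3, 98.5 and 43.7) and Exoc2 (88.5, 73.7 and 55.7) at the top and Exoc5 (5.09, 9.10 and 8.65) last.

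Tethers of the inner membranes included the brightest gene of this wider set. Gorasp2, a Golgi stacking protein, read 11.19 ± 0.77 log2 and was the single gene of the 69 above background in every soma, beside 2.18% of all genes. Golgi tethers as a group had a median of 40.7 ± 5.95 (19 genes), with Vps54 (79.9, 95.2 and 96.3) next and Cog4 (77.4, 2.02 and 1.81) last. Endosomal tethers had a median of 47.1 ± 3.50 (11 genes), with Vps39 (50.8, 59.8 and 67.7) and Vps8 (74.8, 59.4 and 58.7) highest and Hook1 (4.02, 16.6 and 2.93) lowest. None of them passed background, where 5.32% to 11.0% of all genes did in a single cell. With 11 genes this count does not set them apart. The other SNAREs and Sec1/Munc18 proteins had a median of 64.2 ± 13.2 (7 genes), with Scfd2 (93.9, 67.6 and 91.6) and the ER SNARE Bnip1 (72.9, 95.2 and 52.2) highest and Vps33b (4.54, 1.05 and 3.46) lowest.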

How the data were processed

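Amplified RNA of 3 rat somata was hybridised to Affymetrix rat expression arrays, 1 per cell. Each sample had 5 µg of amplified RNA, and the last amplification ran for 14 h. The authors deposited log2 intensities per probe set, and the labels name RMA 2.0. The methods describe an upper-decile summary, median centring and scaling by the span of each array between its 10th and 90th percentiles for the dendrite arrays, but the medians of the deposited log2 values differ and are not 0, so these were not centred. No genome build was found in these sources, and arrays have no read depth: their number limits precision.

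Symbols came from the platform annotation, which can be old. Of 31099 probe sets, 20832 had 1 symbol, 436 had several and 9831 had none here or were controls. All 71 member probe sets matched a RefSeq gene (assembly GRCr8, used for names only) under the same symbol. A gene took the median log2 of its probe sets and was ranked within its array, with mean ranks for ties. Background was the 95th percentile of 29 chemosensory receptor genes and 127 genes of other organs. Differences between cells used quantile normalisation over genes.

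With 1 group of 3 cells no test was made. All members were named, with log2 values given for those in the top 5% of a cell, the 5 lowest, the 5 most variable, and those whose probe sets differed by over 40 points, and outside the rule the 2 highest and the lowest gene of each list. Members and lists were chosen with earlier results of these data known. Python 3.11.15, numpy 2.4.6 and pandas 2.3.3 were used, and the ranking and normalisation steps were tested on simulated data.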

Additional observations from a re-analysis of the deposited data

How the results depend on the processing

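ER and Golgi SNAREs read below plasma membrane and endosomal SNAREs in the mean over cells under every alternative that could be computed (11.6 to 27.9 and 9.73 to 20.3 points), and the other order did not hold. The difference of plasma membrane from endosomal medians (0.38 points) changed sign without probe sets that can match several transcripts (-0.10), with percentiles among all probe sets (-2.24), with the trans-Golgi SNAREs Stx6, Stx16, Vti1a and Vamp4 counted with the ER and Golgi (-1.96), and between -2.19 and 3.76 when a cell was left out, and was 18.2 with the brightest probe sets. That choice also gave 64.7 for all members, 80.8 for the plasma membrane class and 52.8 for the ER and Golgi class. Means in place of medians gave 55.2 for all members, 45 for the ER and Golgi class and 59.3 for the endosomal class, and percentiles among all probe sets gave 55.3 for all members. Among the 692 genes whose mean passed background, 2 members were left, both of the plasma membrane, at 32.7, and no class difference could be computed.

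Members above background in all 3 cells numbered 2 with the 90th percentile of the silent genes, 2 with receptor genes alone, and 1 to 2 when a cell was left out. Those above it in any cell numbered 6 of 41 in the main setting, beside 2424 of all 14218 genes. They numbered 11 with receptor genes alone, 15 with the brightest probe sets, and 3 to 6 when a cell was left out, 3 without cell 3. In the top 5% of every cell was 1 member with the brightest probe sets and 0 to 1 when a cell was left out. Partner genes above background in every cell numbered 2 with receptor genes alone. Shares of all genes under these changed settings were not computed, so the counts do not set members or partner genes apart. The mean r over members was 0.39 to 0.66 when a cell was left out. Without cell 1 the plasma membrane class exceeded the ER and Golgi class by 24.1 points. No paired analysis was possible because the series holds a single group. The cause of these changes was not tested.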

Other observations

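Probe sets built on RefSeq mRNAs and those built on other mRNAs or expressed sequence tags differed among the fusion genes by less than the spread between cells. The 25 RefSeq ones had a median percentile of 57.4 ± 9.29 and the 46 others 54.3 ± 3.89 (SD over 3 cells), beside 50.1 ± 0.45 and 51.2 ± 0.65 for all named probe sets.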
